A study of Rattus norvegicus with 12 samples.

Results

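The genes described here are the serpins, the cathepsins, the kallikreins and the serine proteases named Prss or Tmprss in the uterus of the ovariectomized rat. They are defined by symbol: every gene with a probe set of a single gene symbol whose symbol starts with Serpin, Prss, Tmprss or Klk, or is Cts followed by a single letter, with Prss32 and Ctss left out. This gave 114 of the 14506 genes measured. Each gene is represented by its brightest probe set on average. The 12 animals were ovariectomized young adult female Lewis rats in 4 groups of 3. The E2+3-MC rats received 17β-estradiol at 4 µg/kg/d together with 3-methylcholanthrene at 15 mg/kg/d, the E2 rats received the same dose of estradiol alone, the 3-MC rats the same dose of 3-methylcholanthrene alone, and the vehicle rats DMSO. Treatment ran over 3 days, and each uterus, taken 24 h after the last treatment, gave the total RNA for 1 Affymetrix array. All 4 groups, vehicle included, lacked ovaries.

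Serine proteases cut proteins with an active-site serine, and the Tmprss proteins carry this protease outside the cell on a membrane anchor, whereas most Prss and Klk proteins are secreted. Cathepsins are mostly cysteine or aspartic proteases of the lysosome. Most serpins are inhibitors that trap a serine protease, or sometimes a cysteine protease, by a large change of shape, the clade A serpins acting mainly in plasma and secretions and the clade B serpins mainly inside cells. In the uterus, estradiol acts through the estrogen receptor and drives growth and secretion of the luminal and glandular epithelium, and 3-methylcholanthrene is a ligand of the aryl hydrocarbon receptor (AhR).

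Values are probe set intensities on a linear scale, and differences are given as log2(intensity + 16) with their standard error (SE) from a linear model of all 12 arrays (limma). A gene was called at a Benjamini-Hochberg adjusted p under 0.05 over the 10154 genes tested, which are the genes left after the 30% with the lowest mean level had been set aside as dim, at an intensity of about 71. Array medians ran from 86.3 to 124, and the array of vehicle rat 1 stood apart by its spread: its middle log2 levels spanned 2.7 between quartiles, against 1.87 to 2.35 in the other 11 rats. Markers of endometrial stroma (9 of 9) and of myometrium (8 of 8) lay above the dim limit, and the 5 trophoblast markers lay below it. Of the 114 genes, 46 were tested and 68 were dim. Just inside the limit lay Prss27, Serpinb12 and Klk4, with mean levels of 6.47, 6.49 and 6.49 on the log2 scale, and just outside it Prss39, Ctsw and Prss33, with 6.42, 6.33 and 6.30. The array probes of near-identical copies in the Klk1c, Serpina3, Serpinb6, Serpinb9 and Prss1 to Prss3 groups may bind each other's RNA, which was not tested.

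Promoters are shown for 4 of the genes that rose most with estradiol, 2 proteases of the cell surface and 2 intracellular serpins. Each sequence is the 250 bases before the RefSeq start of the gene in assembly GRCr8, 5′ to 3′ on the plus strand. The regions are chr14:21738510-21738759 for Tmprss11b, chr14:21900754-21901003 for Tmprss11g, chr13:23499953-23500202 for Serpinb5 and chr17:31799196-31799445 for Serpinb1a. Capitals mark the AP-1 site TGANTCA in Tmprss11b and Serpinb5 and the TATA box TATAAA in Serpinb1a.
Tmprss11b: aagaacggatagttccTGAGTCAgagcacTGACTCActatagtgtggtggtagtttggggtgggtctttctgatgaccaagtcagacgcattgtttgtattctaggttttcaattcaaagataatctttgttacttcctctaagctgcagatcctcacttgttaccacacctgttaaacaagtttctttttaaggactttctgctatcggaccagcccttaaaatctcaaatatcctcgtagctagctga
Tmprss11g: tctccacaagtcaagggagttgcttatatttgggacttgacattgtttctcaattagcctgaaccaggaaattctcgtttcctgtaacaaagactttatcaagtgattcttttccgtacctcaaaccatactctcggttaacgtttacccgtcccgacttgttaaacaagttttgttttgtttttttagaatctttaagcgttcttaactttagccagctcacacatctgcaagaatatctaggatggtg
Serpinb5: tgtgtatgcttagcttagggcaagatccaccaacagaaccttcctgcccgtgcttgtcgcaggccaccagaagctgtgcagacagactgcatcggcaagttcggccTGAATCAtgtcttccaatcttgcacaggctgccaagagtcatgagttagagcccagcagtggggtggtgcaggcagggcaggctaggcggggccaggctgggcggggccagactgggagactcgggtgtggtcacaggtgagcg
Serpinb1a: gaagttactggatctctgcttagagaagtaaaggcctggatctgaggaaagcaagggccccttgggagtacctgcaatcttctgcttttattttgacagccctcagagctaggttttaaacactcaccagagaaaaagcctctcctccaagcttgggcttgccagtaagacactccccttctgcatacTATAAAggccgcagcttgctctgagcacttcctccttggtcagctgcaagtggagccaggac

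The AP-1 matches start 234 and 221 bases before the start of Tmprss11b and 144 bases before that of Serpinb5, and the TATAAA match lies 62 bases before that of Serpinb1a. A promoter entry existed for 93 of the 114 genes and for 9 of the 12 that rose in E2 against vehicle uteri. Both strands were searched. The AP-1 letters occurred in 2 of these 9 promoters and in 10 of the 93, against 6.34% of the 33465 promoters of the annotation. The full estrogen response element, GGTCA and TGACC with 3 bases between them, occurred in 0 of the 93, against 0.0239% of all promoters. The single-arm element AGGTCA occurred in 14 of the 93 and in 0 of the 9, against 14.1% of all, and Prss53, which was lower with estradiol, holds a match 171 bases before its start. The core AhR site GCGTG occurred in 11 of the 93 and in 0 of the 9, against 25.9% of all. TATAAA occurred in 10 of the 93, against 12.9% of all. These matches describe letters in a short window and show no binding.

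Tmprss11b, Serpinb5, Tmprss11g, Serpina1 and Serpinb1a rose most in E2 against vehicle uteri, each by more than 3 on the log2 scale. In this comparison 15 of the 46 genes tested were called, 12 higher and 3 lower. Of all genes tested, 18.1% were called, 8.7% higher and 9.44% lower, beside 32.6% of the 46. The median difference was 0.18 over the 46 and -0.11 over all genes. The all-gene median was -0.03 after quantile normalization and 0.05 after median centring of the arrays. These shares cannot be set against each other as they stand, because 6 of the 12 that rose (Tmprss11b, Tmprss11g, Tmprss4, Serpinb5, Serpinb8 and Serpina1) were under the dim limit in vehicle and in 3-MC uteri and were tested because of their levels in the estradiol groups. By family, 4 of 6 Tmprss genes tested rose, 4 of 10 cathepsins, 3 of 7 clade B serpins and 1 of 2 clade A serpins, and 2 of 11 Prss genes and 1 clade B serpin fell. None of the 4 kallikreins or the 6 other serpins tested was called.

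The gene with the largest difference was Tmprss11b, a membrane serine protease of the group related to human airway trypsin-like protease. Its intensity was 621, 234 and 1165 in the 3 E2+3-MC rats, 1217, 921 and 1023 in the E2 rats, 11.6, 4.16 and 14.4 in the 3-MC rats, and 4.52, 12.3 and 4.11 in the vehicle rats. Every rat given estradiol was far above every rat without it. The E2 minus vehicle difference was 5.55 ± 0.38 (SE, n = 3 per group, adjusted p = 1.805e-08). The vehicle values are low, and the size of the difference depends on the constant added before the logarithm. It was 7.18 with 1 added and 3.97 with 64 added. Tmprss11g, a close relative, had 293, 168 and 424 in E2+3-MC rats and 499, 317 and 454 in E2 rats, against 11.9, 28.4 and 18.3 in 3-MC rats and 7.6, 32.3 and 3.79 in vehicle rats. Its difference was 3.93 ± 0.33 (adjusted p = 2.697e-07), and 5.23 or 2.63 with 1 or 64 added. In both genes E2+3-MC rat 2 was the lowest of the rats given estradiol.

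**Figure D1:**
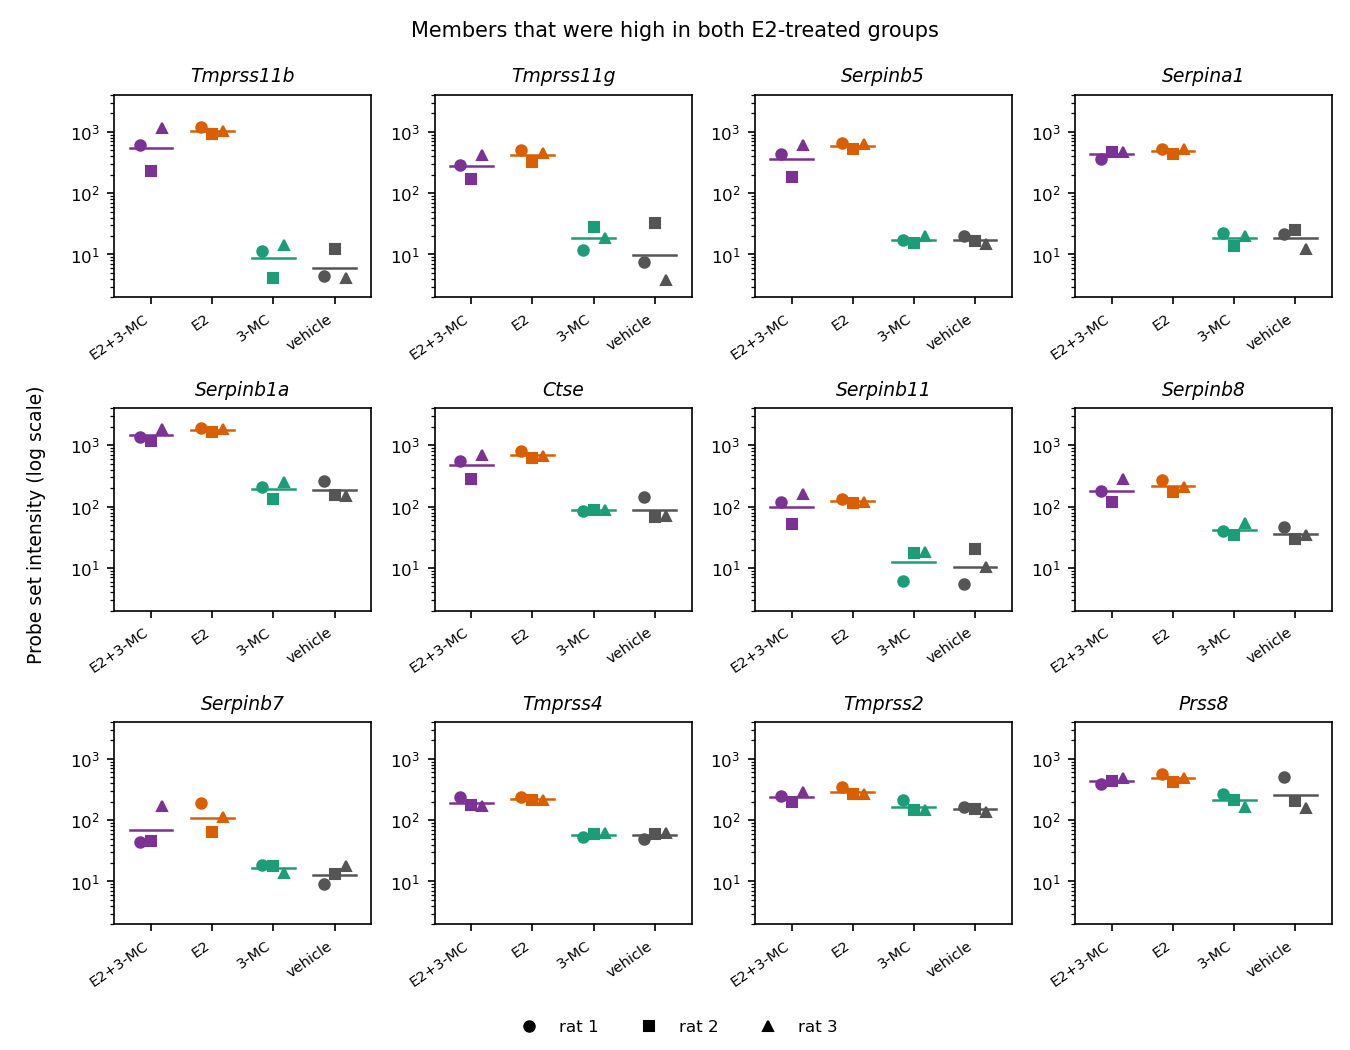
Probe set intensity on a log scale for 12 proteases and serpins that were high in both estradiol groups. Each rat is 1 point (shape gives the rat number), and lines mark the geometric group mean of the intensities. Tmprss11b reaches 234 to 1217 in the 6 rats given estradiol and 4.11 to 14.4 in the other 6. In Prss8 the groups overlap through vehicle rat 1. In Tmprss2 the E2+3-MC rats (196 to 286) overlap the 3-MC rats (146 to 212). Serpinb11 and Serpinb7 were too dim to be tested.

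Tmprss4 and Tmprss2 rose by less. Tmprss4, a membrane protease described in human epithelial tumours, had 235, 177 and 171 in E2+3-MC rats and 238, 213 and 212 in E2 rats, against 52.4, 58.5 and 61.7 in 3-MC rats and 49.5, 59.4 and 62.9 in vehicle rats, a difference of 1.70 ± 0.18 for E2 minus vehicle (adjusted p = 4.268e-06). The ranges of this gene are tight and do not overlap. Tmprss2, known in human prostate as an androgen-regulated membrane protease, had 352, 268 and 263 in E2 rats against 164, 153 and 135 in vehicle rats, a difference of 0.89 ± 0.21 (adjusted p = 0.006415). Its values of 245, 196 and 286 in E2+3-MC rats overlap those of 212, 146 and 146 in 3-MC rats. Tmprss13 and Tmprss5 were not called, with 0.24 and -0.37. The other 8 Tmprss genes were dim.

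Among the Prss genes, Prss8, which encodes prostasin, a membrane-anchored activator of the epithelial sodium channel, had 396, 443 and 495 in E2+3-MC rats and 559, 423 and 494 in E2 rats, against 272, 212 and 165 in 3-MC rats and 503, 206 and 160 in vehicle rats. Vehicle rat 1 alone lies within the range of the estradiol groups. The E2 minus vehicle difference of 0.89 ± 0.30 just missed the threshold (adjusted p = 0.0521). It was called in 8 of 24 alternative settings. Among these were quantile normalization with all 12 rats kept (0.94, adjusted p = 0.003008) and the model that left out vehicle rat 1 (1.35, adjusted p = 1.333e-05). In E2+3-MC minus 3-MC, which uses no vehicle rat as a level, the difference was 1.01 ± 0.30 and just called (adjusted p = 0.04977), a call that held in 12 of 24 settings.

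Of the Prss genes, 2 fell with estradiol. Prss23, a secreted serine protease, had 216, 244 and 264 in E2+3-MC rats, 184, 130 and 129 in E2 rats, 325, 315 and 318 in 3-MC rats, and 590, 322 and 327 in vehicle rats. The E2 rats are the lowest, and the E2+3-MC rats lie between them and the rats without estradiol. The E2 minus vehicle difference was -1.35 ± 0.23 (adjusted p = 4.475e-04). Prss53, whose protein holds more than a single protease domain, had 88.2, 74.6 and 71.9 in E2 rats against 116, 130 and 144 in vehicle rats (-0.63 ± 0.18, adjusted p = 0.02056), a difference that missed the threshold without vehicle rat 2 or 3, without E2 rat 2 or 3, or with only the E2 and vehicle groups in the model (adjusted p from 0.05471 to 0.1412). Prss12, which encodes neurotrypsin, and Prss22, a tryptase of epithelia, were not called, with -0.2 ± 0.22 and 0.15 ± 0.23.

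**Figure D2:**
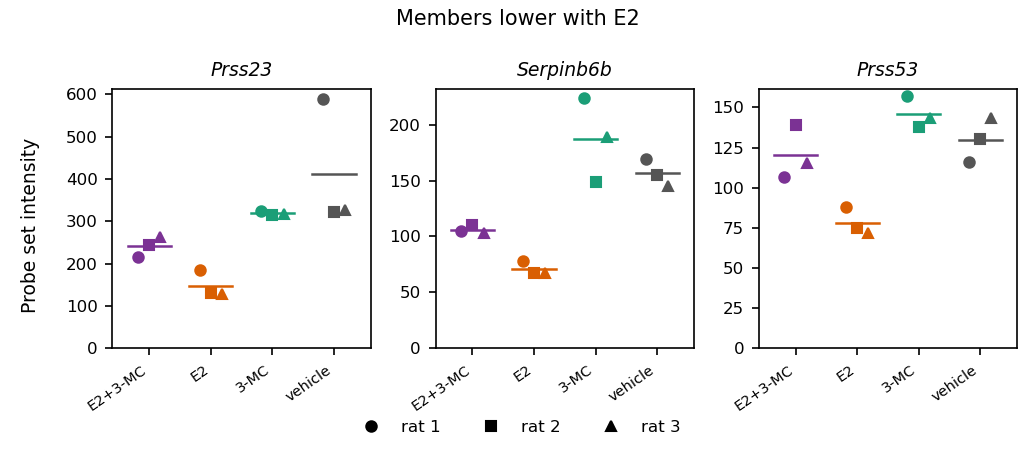
Probe set intensity of the 3 genes that fell with estradiol, 1 point per rat, a line at the arithmetic group mean of the intensities, and each axis from 0. In E2 rats Prss23 lies at 129 to 184, Serpinb6b at 67.2 to 78.2 and Prss53 at 71.9 to 88.2, below the other 9 rats in each panel.

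None of the kallikreins was called. Only 4 of 19 were above the dim limit, and their E2 minus vehicle differences ran from -0.39 to 0.12. Klk1, the tissue kallikrein that releases kinins, had 59.2, 117 and 73.8 in E2 rats against 71.1, 68 and 79.7 in vehicle rats (0.12 ± 0.21, adjusted p = 0.7405). Its values are close to the dim limit in every group. Of the 18 kallikreins that stand in an unbroken row of 23 Klk genes in the RefSeq order, 4 were tested and 0 were called.

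Of the 16 cathepsins 10 were tested, and the E2 minus vehicle differences of these 10 ran from -0.51 to 2.77. Ctse, an aspartic protease of endosomes found in mucosal epithelia and immune cells rather than in most lysosomes, had 566, 284 and 689 in E2+3-MC rats and 820, 616 and 670 in E2 rats, against 84.6, 89.6 and 88 in 3-MC rats and 144, 67.8 and 69.4 in vehicle rats. Its ranges are far apart, with a difference of 2.77 ± 0.29 (adjusted p = 3.503e-06). Ctsb, a lysosomal cysteine protease, had 2319, 2001 and 3697 in E2+3-MC rats and 3471, 2893 and 2607 in E2 rats, against 1075, 938 and 1252 in 3-MC rats and 2404, 1011 and 775 in vehicle rats. Here vehicle rat 1 comes close to the lowest E2 rat, and the difference was 1.25 ± 0.32 (adjusted p = 0.01252), or 1.14 and not called without E2 rat 1 (adjusted p = 0.05588).

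Ctsc, which activates the granule serine proteases of leukocytes, and Ctsh, an aminopeptidase, were called by a narrow margin. Ctsc had 1003, 737 and 931 in E2 rats against 859, 386 and 275 in vehicle rats (0.94 ± 0.30, adjusted p = 0.03545), and Ctsh had 1767, 1307 and 1435 in E2 rats against 1430, 699 and 671 in vehicle rats (0.76 ± 0.25, adjusted p = 0.04587). Vehicle rat 1 lies within the range of the E2 rats for both genes. The call of Ctsc held in 16 and that of Ctsh in 11 of the 24 alternative settings, and with only the E2 and vehicle groups in the model neither was called (adjusted p = 0.09956 for Ctsc and 0.1462 for Ctsh). The other cathepsins were not called: the carboxypeptidase Ctsz with 0.61 ± 0.31, the cysteine protease Ctsl with 0.44 ± 0.27, the collagen-cutting Ctsk with 0.42 ± 0.23, the aspartic Ctsd with 0.2 ± 0.31, the serine carboxypeptidase Ctsa with 0.04 ± 0.30 and Ctsf with -0.51 ± 0.28.

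Vehicle rat 1 had the highest value of the 3 vehicle rats for 10 of 10 cathepsins tested, with a median ratio of 2.57 to the mean of the other vehicle rats, and for 24 of all 46 genes. Without it Ctsz (1.06, adjusted p = 4.181e-04), Ctsl (0.85, adjusted p = 0.001155), Ctsd (0.66, adjusted p = 0.01205), Ctsk (0.65, adjusted p = 0.01139) and Ctsa (0.52, adjusted p = 0.03131) were called as well, and 25 of the 46 genes were called in all, when 34.9% of all genes were. With all 12 rats, Ctsk (0.55, adjusted p = 0.009642) and Ctsz (0.63, adjusted p = 0.03156) were called after quantile normalization, and Ctsk after median centring (0.58, adjusted p = 0.03388). The summed intensity of 11 macrophage markers, of which 1 was dim, was 5867 to 7226 in E2+3-MC rats and 5479 to 7707 in E2 rats, against 2233 to 3967 in 3-MC rats, and 6075 in vehicle rat 1 and 2070 and 2215 in the other vehicle rats. Macrophages are rich in lysosomal cathepsins, and 5 of 10 macrophage markers tested rose in E2 against vehicle uteri. Other marker lists were also highest in vehicle rat 1 among the vehicle rats: 6 adipocyte markers summed to 13368 there against 2047 and 2764, the stroma markers to 17846 against 9000 and 8280, the myometrium markers to 37248 against 21365 and 21906, and 13 epithelial markers to 8250 against 3987 and 3861. The part of these cells in the cathepsin values was not tested. In these whole-tissue RNA samples, more cells of a type and more RNA per cell cannot be told apart.

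**Figure D3:**
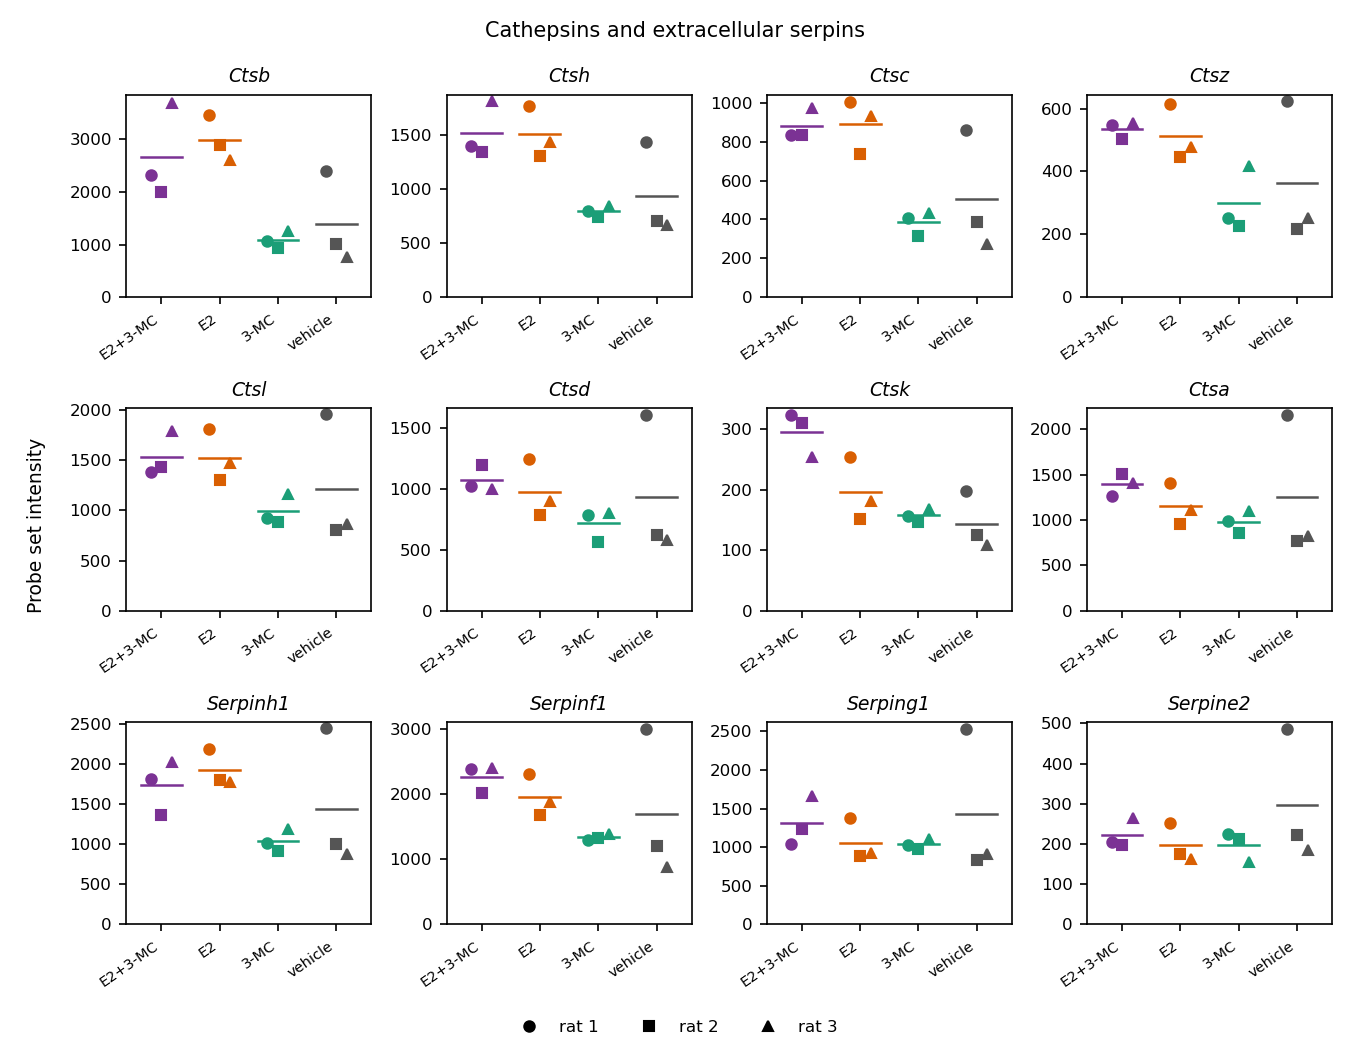
Probe set intensity of 8 cathepsins and 4 serpins outside clades A and B, 1 point per rat, a line at the arithmetic group mean of the intensities, and each axis from 0. Vehicle rat 1 (circle) stands above the other vehicle rats in every panel, for Ctsd at 1608 against 621 and 579, and reaches the level of the rats given estradiol for most of these genes.

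Of the 2 clade A serpins tested, Serpina1, the plasma inhibitor of neutrophil elastase known as alpha-1-antitrypsin, rose. It had 362, 477 and 468 in E2+3-MC rats and 520, 434 and 527 in E2 rats, against 22.3, 14 and 20 in 3-MC rats and 21.8, 24.9 and 12.2 in vehicle rats. The spread within each group is small beside the gap, and the difference was 3.85 ± 0.20 (adjusted p = 5.232e-10), or 4.64 and 2.74 with 1 and 64 added. Of 10 markers of liver and plasma proteins 7 were dim, and their summed intensity was 1007 to 1086 in E2+3-MC rats, 759 to 1004 in E2 rats, 738 to 927 in 3-MC rats and 766 to 1040 in vehicle rats. Serpina6, which carries corticosteroids and inhibits no protease, was not called (0.36 ± 0.24). Of the 13 clade A genes, 11 were dim, among them Serpina3n.

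Of the 7 clade B serpins tested, 3 rose. Serpinb5, an epithelial serpin known as maspin, had 438, 182 and 614 in E2+3-MC rats and 650, 525 and 625 in E2 rats, against 17.1, 15.4 and 20.2 in 3-MC rats and 19.8, 16.6 and 14.7 in vehicle rats, a difference of 4.22 ± 0.30 (adjusted p = 2.574e-08), or 5.06 and 3.03 with 1 and 64 added. As with Tmprss11b, E2+3-MC rat 2 was the lowest of the rats given estradiol. Serpinb1a, an inhibitor of neutrophil granule proteases, had 1380, 1201 and 1843 in E2+3-MC rats and 1931, 1680 and 1836 in E2 rats, against 211, 134 and 254 in 3-MC rats and 265, 158 and 151 in vehicle rats (3.18 ± 0.25, adjusted p = 1.051e-07). This gene was well above the dim limit in every rat, and its difference was 3.29 and 2.91 with 1 and 64 added. Serpinb8, whose human form inhibits furin, had 274, 175 and 211 in E2 rats against 47.1, 29.7 and 34.1 in vehicle rats (2.15 ± 0.26, adjusted p = 1.71e-05).

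Serpinb6b was the clade B serpin that fell. It had 105, 110 and 103 in E2+3-MC rats and 78.2, 67.2 and 67.7 in E2 rats, against 224, 149 and 189 in 3-MC rats and 169, 155 and 145 in vehicle rats. The 6 rats given estradiol lie below the other 6, and the E2 minus vehicle difference was -0.99 ± 0.18 (adjusted p = 0.001112). Its relatives Serpinb6a and Serpinb9, which inhibits granzyme B, were not called, with 0.44 ± 0.30 and 0.2 ± 0.25.

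Serpinb11 and Serpinb7 stayed below the dim limit on average and were not part of the test. Serpinb11 had 119, 52.6 and 163 in E2+3-MC rats and 134, 115 and 119 in E2 rats, against 6.1, 17.3 and 18.3 in 3-MC rats and 5.53, 20.8 and 10.2 in vehicle rats. Serpinb7 had 44.3, 45.1 and 168 in E2+3-MC rats and 189, 63.4 and 113 in E2 rats, against 18.3, 18.2 and 13.7 in 3-MC rats and 9.17, 13.3 and 17.9 in vehicle rats. For both genes all 6 rats given estradiol were above the other 6. In a model of all genes with no dim filter, the E2 minus vehicle differences were 2.33 ± 0.30 and 2.13 ± 0.37 (adjusted p = 7.235e-05 and 0.001168).

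The serpins outside clades A and B did not pass the test. Serpinh1, the collagen chaperone of the endoplasmic reticulum, had 2189, 1799 and 1773 in E2 rats against 2447, 1002 and 880 in vehicle rats (0.56 ± 0.30, adjusted p = 0.2049). Serpinf1, a secreted factor with no inhibitory action, showed 0.39 ± 0.31, Serping1, the inhibitor of complement C1, -0.26 ± 0.33, Serpine2, an inhibitor of thrombin and plasminogen activators, -0.47 ± 0.29, and Serpind1, heparin cofactor II, -0.27 ± 0.17. Vehicle rat 1 was the highest vehicle rat in 4 of the 6, with a median ratio of 2.5. Without it Serpinh1 (1.01, adjusted p = 2.332e-04) and Serpinf1 (0.9, adjusted p = 4.948e-04) were called and the sign of Serping1 turned to 0.25.

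Some of these genes stand side by side on a chromosome. In the RefSeq order of GRCr8, Tmprss11b and Tmprss11g lie in a run of 7 Tmprss11 genes, of which 5 were measured; between and beside them Tmprss11f, Tmprss11d and Tmprss11c were dim and not tested. The run with Serpinb5 and Serpinb8 holds 9 of the serpins measured, of which 3 were tested, and Serpinb5 and Serpinb8 at its ends rose while Serpinb12, next to Serpinb5, showed 0.15 ± 0.18. The dim Serpinb11 and Serpinb7, at 2.33 and 2.13 in the model with no dim filter, stand together inside this run. In the run with Serpinb6a and Serpinb1a, 5 serpins were measured and 4 tested, and Serpinb1a rose while Serpinb6b, the nearest measured gene to it, fell.

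**Figure D4:**
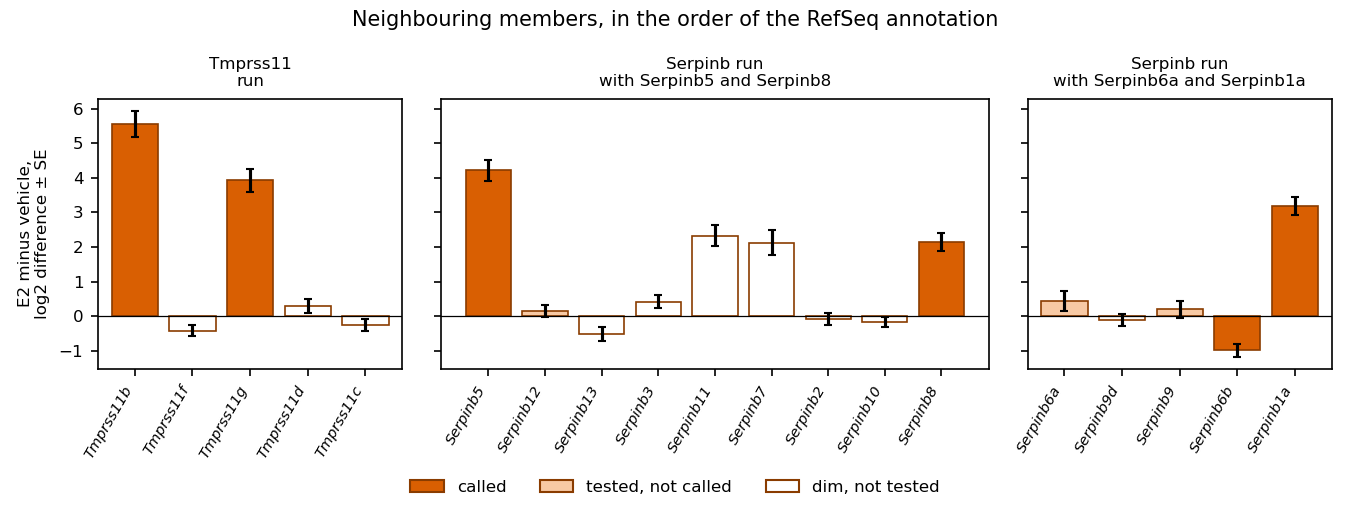
E2 minus vehicle differences on the log2(intensity + 16) scale with SE for neighbouring measured genes of the Tmprss11 run and of 2 Serpinb runs, in the order of the RefSeq annotation. Filled bars are called, pale bars tested and not called, open bars dim and not tested; Tmprss11b at 5.55 and Tmprss11g at 3.93 stand beside dim relatives, and Serpinb1a at 3.18 beside Serpinb6b at -0.99.

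The response to estradiol was also measured on top of 3-methylcholanthrene, in rats that the first comparison does not use. The spread in both comparisons was estimated from all 12 arrays, so they are not fully separate. In E2+3-MC against 3-MC uteri 14 of the 46 genes were called, 13 higher and 1 lower, when 8.21% of all genes were called, 6.82% higher and 1.39% lower. Here too the shares cannot be set against each other as they stand. Of the 13 that rose, 6 were under the dim limit in 3-MC uteri and were tested because of their levels in the estradiol groups. The 13 that rose include 11 of the 12 that rose in E2 against vehicle uteri; Tmprss2 was called in the first comparison alone, and Prss8 and Ctsk in the second alone. The test of the difference between the 2 comparisons, which is the interaction described further on, called none of these genes. Of the 3 genes that fell in E2 against vehicle uteri, Serpinb6b fell here (-0.72 ± 0.18, adjusted p = 0.01802), and Prss23 and Prss53 showed -0.39 and -0.26 and were not called. The largest rises were again Tmprss11b (4.48), Serpina1 (3.70), Serpinb5 (3.52), Tmprss11g (3.07), Serpinb1a (2.81), Ctse (2.27), Serpinb8 (1.76) and Tmprss4 (1.51), followed by Ctsb (1.24), Ctsc (1.17), Prss8 (1.01), Ctsh (0.91) and Ctsk (0.84). Ctsk had 323, 310 and 254 in E2+3-MC rats against 157, 147 and 168 in 3-MC rats, with no overlap. The call of Serpinb6b was lost without rat 1 or 3 of the 3-MC group or rat 1 or 3 of the E2+3-MC group (adjusted p from 0.07356 to 0.1255). The count was 8 without 3-MC rat 1 or E2+3-MC rat 1, when 4.9% and 4.85% of all genes were called, and 9 without 3-MC rat 2 or E2+3-MC rat 3, when 4.06% and 4.41% were. The calls of Ctsb, Ctsc, Ctsh, Ctsk and Prss8 were among those lost in 1 or more of these settings. Without vehicle rat 1 the count was 22, when 21.4% of all genes were called, and with only the E2+3-MC and 3-MC groups in the model it was 21, when 22.4% were.

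**Figure D5:**
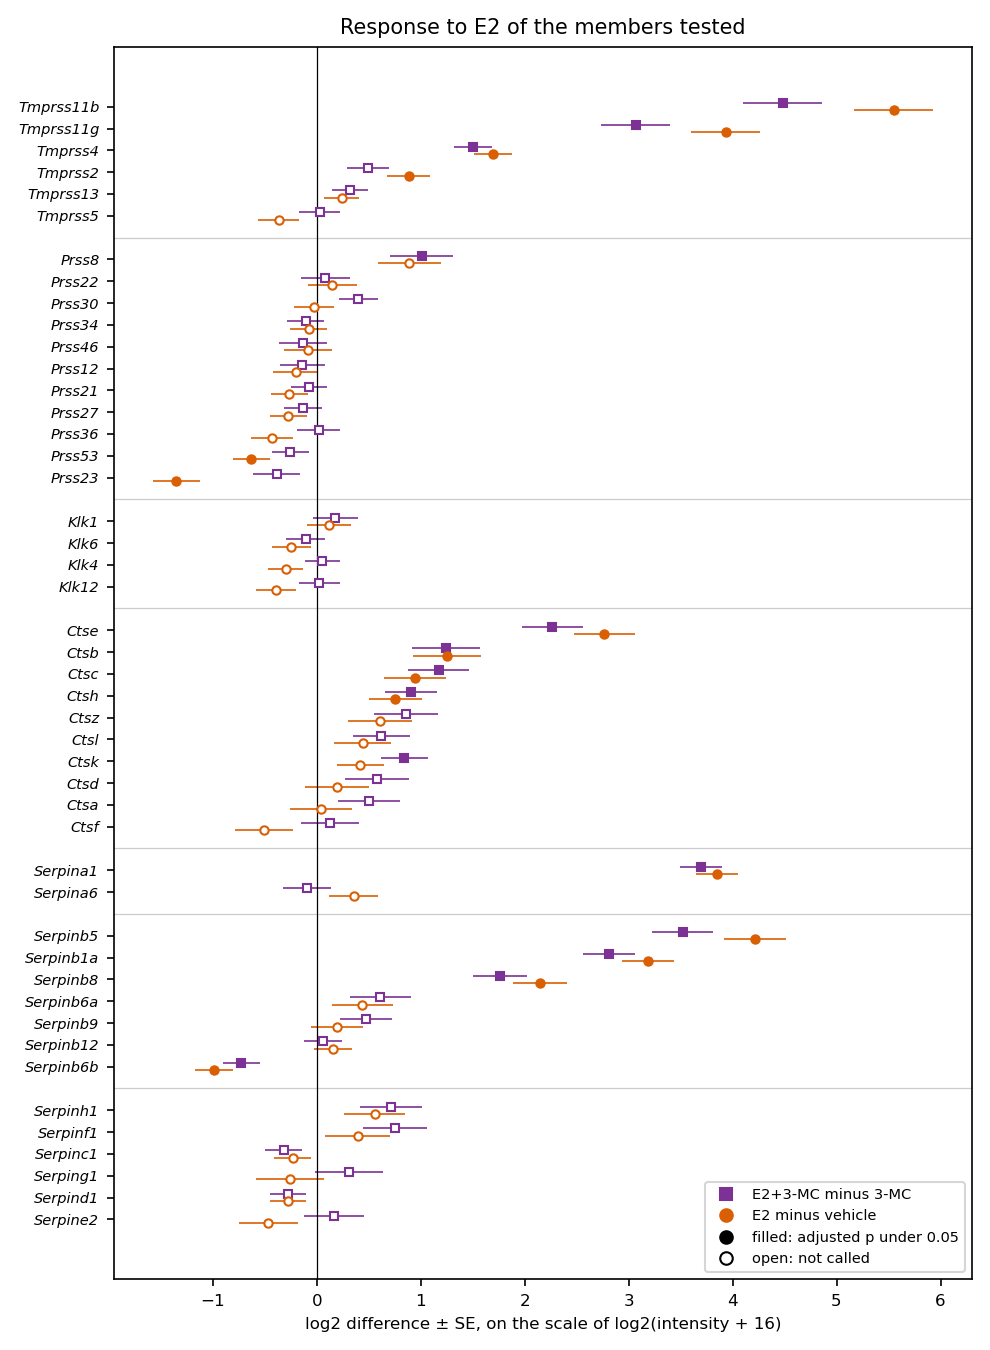
Log2 differences with SE of the 46 genes tested, by family, for E2+3-MC minus 3-MC (squares) and E2 minus vehicle (circles). Filled symbols are called; Tmprss11b, Tmprss11g, Serpina1, Serpinb5 and Serpinb1a lie at 2.81 or more in both comparisons, and the kallikreins between -0.39 and 0.18.

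In E2+3-MC against vehicle uteri 9 genes were called, all higher, when 7.84% of all genes were called, 6.06% higher. These were Tmprss11b (4.66 ± 0.38), Serpina1 (3.67 ± 0.20), Serpinb5 (3.54 ± 0.30), Tmprss11g (3.37 ± 0.33), Serpinb1a (2.87 ± 0.25), Ctse (2.25 ± 0.29), Serpinb8 (1.92 ± 0.26), Tmprss4 (1.51 ± 0.18) and Ctsk (1.00 ± 0.23, adjusted p = 0.009415). The call of Ctsk was lost without E2+3-MC rat 1 (0.94, adjusted p = 0.05811) and with only the E2+3-MC and vehicle groups in the model (adjusted p = 0.07815). This comparison shares its vehicle rats with E2 against vehicle. Of the 9 genes, 6 were under the dim limit in vehicle uteri and were tested because of their levels in the estradiol groups. Their share therefore cannot be set against that of all genes as it stands. Without vehicle rat 1 the count was 23, when 26.6% of all genes were called, and after quantile normalization of the arrays it was 19 (17 higher and 2 lower), when 26.1% were. After median centring it was 12 (10 higher and 2 lower), when 10.5% were.

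Whether 3-methylcholanthrene changed these genes was tested with and without estradiol. In 3-MC against vehicle uteri 0 of the 46 genes were called, as were 0% of all genes, and at an unadjusted p under 0.05 the count was again 0, against 0.808% of all genes. The differences of the 46 ran from -0.45 to 0.45. In 3 genes the 3 rats of each group did not overlap, against 3.1% of all genes. Serpind1 had 222, 209 and 194 in 3-MC rats against 156, 170 and 164 in vehicle rats (0.32 ± 0.17), Serpinc1, which encodes antithrombin, had 101, 92.8 and 103 against 72.9, 92.4 and 81.5 (0.23 ± 0.18), and Prss27 had 88.1, 80.6 and 80.9 against 72.9, 77.2 and 76 (0.12 ± 0.18), each with an adjusted p of 0.9999 and higher in the 3-MC rats. The difference of Prss27 was -0.004 after quantile normalization.

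In E2+3-MC against E2 uteri 0 of the 46 genes were called, as were 0% of all genes. At an unadjusted p under 0.05 there were 8, or 17.4% of the 46, against 9.23% of all genes. In 11 of the 46 the rats of the groups did not overlap, all 11 higher in the E2+3-MC rats, against 16.7% of all genes that were higher in this way. The median of all genes was itself 0.15 higher in E2+3-MC than in E2 uteri, and -0.01 after quantile normalization, so small positive differences have to be read against that shift. The genes with the largest such differences were Prss23 (0.66 ± 0.23, adjusted p = 0.4884), Prss53 (0.53 ± 0.18) and Klk12 (0.51 ± 0.19); after quantile normalization they were 0.46, 0.27 and 0.24. Without vehicle rat 1 in the model Prss23 was called (0.66 ± 0.16, adjusted p = 0.04126), when 1.1% of all genes were called. No vehicle rat enters this difference as a level. The difference stayed the same, and the smaller SE comes from the spread over all groups. In the opposite direction Tmprss11b differed by -0.89 ± 0.38 (adjusted p = 0.5232) and Serpinb5 by -0.68 ± 0.30 (adjusted p = 0.5385), with overlapping ranges. The order of the rats within each group was counted over the 12 genes that rose in E2 against vehicle uteri. It was not counted over all genes, so these counts have no background. The array medians of rats 1, 2 and 3 also differed. They were 118, 112 and 110 for E2+3-MC, 108, 86.9 and 86.3 for E2, 124, 104 and 111 for 3-MC, and 111, 110 and 97 for vehicle. In the 3-MC and vehicle groups 6 of the 12 genes were under the dim limit, where the order rests on weak signal. Among the E2+3-MC rats, rat 2 was the lowest for 10 and rat 3 the highest for 10. Among the E2 rats, rat 2 was the lowest for 9 and rat 1 the highest for 11. In the 3-MC group rat 2 was the lowest for 8 and rat 3 the highest for 8, and in the vehicle group rat 3 was the lowest for 9 and rat 1 the highest for 8. The summed intensity of the 13 epithelial markers was 14225, 8852 and 18042 in E2+3-MC rats 1, 2 and 3, where rat 2 was again the lowest and rat 3 the highest. It was 20492, 16798 and 17644 in E2 rats 1, 2 and 3. The part of epithelial content in these values was not tested.

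The interaction, which asks whether the effect of 3-methylcholanthrene differed with estradiol present, called 0 of the 46 genes and 0% of all genes. Only Prss23 reached an unadjusted p under 0.05 among the 46, or 2.17%, against 2.93% of all genes, with 0.96 ± 0.32 (adjusted p = 0.9766). Tmprss11b showed -1.07 ± 0.53 (adjusted p = 0.9766). In data simulated with the spread of these arrays, 22 of 100 changes of 1 log2 unit and 90 of 100 of 2 log2 units were called in this test, so an interaction of 1 unit would often be missed. The simulated noise was independent between genes, without shifts shared by an array, so the rates in the real data may differ. The simulation also held 100 changed genes of each size among 10154. The adjusted threshold depends on that share, which is not known for the real data.

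The epithelial markers moved with the genes that rose. Of 12 tested, 8 rose and 1 fell in E2 against vehicle uteri, with a median difference of 1.42, and the summed intensity of all 13 was 3746 to 4933 in 3-MC rats and 3861 to 8250 in vehicle rats, all below the rats given estradiol listed above. Neutrophil markers, the cells whose elastase Serpina1 and Serpinb1a inhibit, had a summed intensity of 481 to 1065 in E2+3-MC rats and 711 to 1137 in E2 rats, against 350 to 379 in 3-MC rats and 320 to 608 in vehicle rats; 4 of these 8 markers were dim, and of the 4 tested 3 rose in E2 against vehicle uteri and 1, Mpo, fell (-1.17 ± 0.34). Of 5 markers of stratified epithelium, a tissue known in human for SERPINB5 and TMPRSS11 proteins, 2 were dim, Dsc2 rose (3.41 ± 0.37), Krt13 fell (-0.64 ± 0.21) and Ivl was not called. The part of these cells in the results was not tested.

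Partners and relatives of these proteases were read from lists of genes outside the families, beside the 8.7% of all genes that rose and the 9.44% that fell in E2 against vehicle uteri. Of 14 other trypsin-like and subtilisin-like proteases tested, 4 rose in E2 against vehicle uteri and 0 fell, with a median of 0.08 against -0.11 over all genes. They include Htra4 (2.46 ± 0.29), the proprotein convertase Pcsk6 (1.70 ± 0.27) and St14, which encodes matriptase, a membrane protease that works together with prostasin (1.17 ± 0.28, adjusted p = 0.007932). Of 18 other protease inhibitors tested 3 rose and 1 fell, with a median of -0.30. Slpi, a secreted inhibitor of neutrophil elastase, rose by 3.85 ± 0.48, the broad plasma inhibitor A2m by 1.07 ± 0.25 and Spint1, the membrane inhibitor of matriptase, by 0.78 ± 0.20, and Wfdc3 fell by 0.64 on the log2 scale.

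Of 20 genes tested in a list of plasminogen, coagulation, contact and complement proteases with their cofactors and receptors, 4 rose and 2 fell, with a median of -0.13. Those that rose were the complement protease Cfi (3.26 ± 0.21), F2rl1, the receptor PAR2 that trypsin-like proteases activate by cutting it (1.71 ± 0.27), Anxa2, a plasminogen-binding protein of the cell surface (1.57 ± 0.30), and S100a10, its partner (0.95). Vtn, which encodes vitronectin and binds the inhibitor PAI-1, fell (-0.73 ± 0.18), as did Masp2 (-0.60 ± 0.19). Of 33 lysosomal enzymes and membrane proteins 5 rose and 0 fell, with a median of 0.14. The cholesterol transporters Npc2 (1.07 ± 0.30) and Npc1 (1.01 ± 0.21) and Scarb2 (0.98 ± 0.32) were the largest of these. After quantile normalization, when 38.4% of all genes were called, 11 lysosomal genes rose and 4 fell, 7 genes of the plasminogen and coagulation list rose and 4 fell, 6 of the other inhibitors rose and 4 fell, and 6 of the other proteases rose and 1 fell. None of the 4 lists had a gene called in 3-MC against vehicle or in E2+3-MC against E2 uteri, where 0% of all genes were called.

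The 68 dim genes give mostly bounds. Of these, 55 were under the limit in each of the 12 rats and 0 were over it in every rat, and the highest single value was 194 for Serpina3n in an E2+3-MC rat, whose other E2+3-MC values were 63.8 and 52.8. They include 18 of the 29 Prss genes, 15 of the 19 kallikreins and 6 of the 16 cathepsins. Ctsj, Ctsm, Ctsq and Ctsr, known in rodents from the placenta, were dim together with the trophoblast markers, with the highest of their values at 48.1. Ctsg, a protease of neutrophil and mast cell granules, lay between 45 and 92.4, and Ctsw, of cytotoxic lymphocytes, between 37.8 and 90.5. Serpinb2, an inhibitor of plasminogen activators, stayed between 11.5 and 24.9, Prss35 between 10.8 and 42.7, and Serpini1, neuroserpin, between 43.3 and 124, all 3 with groups that overlap in E2 against vehicle uteri.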

How the data were processed

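Per the labels' protocols, total RNA was extracted from 12 rat uteri with Trizol, and biotinylated cRNA made from it was read on an Affymetrix array for each rat. The deposited values are linear intensity summaries of 29214 probe sets, made by the authors with Affymetrix Expression Console and PLIER per the submitters' processing notes. For versions, settings, genome build and normalization between arrays: not given in the sources used here. Gene names came from the platform annotation, 15310 probe sets having a single symbol.

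Intensities were transformed as log2(intensity + 16), and limma 3.58.1 in R 4.3.3 (lmFit, eBayes) was fitted to all 12 arrays with a mean per group, leaving 8 residual and 8.92 prior degrees of freedom. Tests were two-sided and adjusted by Benjamini-Hochberg over 10154 genes. The model was tested on data simulated with noise independent between genes: in E2 minus vehicle, 69 of 100 changes of 1 log2 unit and 98 of 100 of 2 units were called. The share of changed genes in the simulation was set and may differ from that in the real data. Precision is limited by having 3 arrays a group, with a median SE of 0.23 for the genes described. The rats are separate animals, and no label pairs them across groups.

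The genes and the lists were chosen with earlier results of these data known. Genes named were up to 15 called higher and 12 lower in E2 minus vehicle, those called in the other comparisons, a set of well-known members, and the 3 largest differences without overlap each way where none was called. Of the lists, up to 3 called genes each way were named by size, and S100a10, Mpo, Dsc2, Krt13, Ivl, Serpina6, Serpinb7, Serpinb11, Tmprss5 and Tmprss13 were named after their values were seen. Alternatives changed the normalization, the added constant, the dim filter, the model, the probe set rule and the rats used. Promoters and gene order are from RefSeq, assembly GRCr8.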

Additional observations from a re-analysis of the deposited data

Results flagged for a closer look

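In 2 of the 68 dim genes, the 3 rats of each group moved in opposite ways under the same treatment. The share of all genes that do so was not counted, so these 2 cannot be set against a background. Groups of 3 rats often fail to overlap: in E2+3-MC minus E2, 16.7% of all genes tested were higher without overlap. Both genes were under the dim limit in every rat. Tmprss11c differed by -0.257 in E2 minus vehicle, with 30.8, 35.6 and 34.8 in E2 rats against 41.5, 43.6 and 45.2 in vehicle rats, and by 0.356 in E2+3-MC minus 3-MC, with 55.3, 46.7 and 47.2 in E2+3-MC rats against 36, 26.2 and 45.5 in 3-MC rats. Serpina1f differed by -0.252 in 3-MC minus vehicle, with 38.2, 34.1 and 42.1 in 3-MC rats against 47.6, 46.3 and 51.1 in vehicle rats, and by 0.236 in E2+3-MC minus E2, with 42, 50.8 and 41.5 in E2+3-MC rats against 34.6, 36.2 and 35.7 in E2 rats. In a limma model of all genes with no dim filter, the interaction was 0.61 ± 0.23 for Tmprss11c and 0.49 ± 0.21 for Serpina1f, with an adjusted p of 0.9651 each, so neither difference passed the test.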

How the results depend on the processing

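The count of 15 genes in E2 minus vehicle was 8 with the 50% dimmest genes left out, which removes 23 of the 46, when 16.3% of all genes were called. It was 12 to 25 with each rat left out in turn, when 9.84% to 34.9% of all genes were called. With quantile normalization without vehicle rat 1, a setting chosen after seeing the data, it was 25, when 46.1% of all genes were called. The count of 9 in E2+3-MC minus vehicle was 19 after quantile normalization (26.1% of all genes) and 4 with the 50% filter (7.46%). It was 8 to 23 with each rat left out (4.38% to 26.6% of all genes) and 23 with quantile normalization without vehicle rat 1 (33% of all genes). The count of 14 in E2+3-MC minus 3-MC was 7 with the 50% filter (8.52% of all genes) and 8 to 22 with each rat left out (4.06% to 21.4% of all genes). It was 24 with quantile normalization without vehicle rat 1 (34.2% of all genes). The count of 0 in E2+3-MC minus E2 was 0 to 1 with each rat left out (0% to 1.1% of all genes). In 3-MC minus vehicle and in the interaction it was 0 in every setting run. The lower counts under the 50% filter follow from the fewer genes tested; the cause of the other shifts was not tested.

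Of 38 called results of single genes, 827 of 891 values kept direction and call, 64 lost the call and 0 reversed. Of 23 results not called, 505 of 545 values kept direction and stayed uncalled, 27 gained a call in the same direction and 13 reversed. The cause was not tested. After quantile normalization the reversed values were Ctsa (-0.123) and Prss12 (0.01, and 0.138 also without vehicle rat 1) in E2 minus vehicle and Prss27 (-0.004) in 3-MC minus vehicle. With each rat left out in turn, E2 minus vehicle ran from -0.216 to 0.517 for Ctsa, -0.061 to 0.663 for Ctsd, -0.543 to 0.247 for Serping1, -0.014 to 0.488 for Serpinb9, -0.178 to 0.324 for Prss22 and -0.112 to 0.299 for Klk1.

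With the rat number as a replicate block, 14 genes (13 higher, 1 lower) were called in E2+3-MC minus vehicle, when 10.7% of all genes were. In E2 minus vehicle the block gave 16, when 25.1% of all genes were called. The labels do not say that the numbers pair the rats, and deviations from the group means correlated at -0.271 to 0.239 over 18 same-numbered pairs, 8 of them over 0.1, and at -0.445 to 0.393 over 36 others, 9 of them over 0.1. Weak probe signal limits the sizes of the genes that were dim without estradiol.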
